A study of Sus scrofa with 57 samples.

Results

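This report describes a block of transcripts whose levels moved together with the clone scaj0012.o.01 over the muscle of 57 pigs. The clone is listed by the study with loci on SSC1 and SSC16 (pig chromosomes) that go with its level. Of the 9216 rows of the deposited table, 26.7% held values. Each row was corrected for array series, the third number of a sample's source name, which gives series_156 and series_161. A row was a member when its Pearson correlation with scaj0012.o.01 exceeded 0.67. The rule gave 175 members, 7.10% of the rows with values, scaj0012.o.01 included. The same correlations chose the members, so they are given as a description and were not tested.

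The 57 animals were F2 pigs from an intercross of a Pietrain-type and a synthetic sire line. By the methods all came from the same boar and a few sows, and all were females and barrows that carried neither of the RYR1 and PRKAG3 alleles known to alter this muscle. Longissimus lumborum, the loin muscle, was sampled 20 minutes after exsanguination, and each animal was hybridised to 1 nylon cDNA array. No treatment was compared. Ages are not given in the sources used here, and sex, litter and slaughter batch are not in the sample labels. The paper's models also fitted a hybridization batch and a spotting batch, which the labels do not name either. Whether array series stands for either of them is not known. The array series held 26 animals (series_156) and 31 animals (series_161).

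The loin of the pig consists mainly of fast, glycolytic fibres. Messengers for contractile proteins, for glycolytic enzymes and for the mitochondrial respiratory chain are among the most abundant in such tissue. A cDNA array of this kind carries clones picked from libraries, so different spots can carry pieces of the same transcript. A locus whose alleles go with the level of a transcript is called an eQTL, and an eQTL away from the gene itself can go with many transcripts at once. The tables used here give no gene name for scaj0012.o.01 or for any other member, so the members are named by clone, and markers of muscle and of other cell types could not be checked. In whole muscle, fewer cells of a type and less RNA per cell cannot be told apart.

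The unit of the table is a score. The authors' normalised log10 intensities were centred and have mean 0 and SD 1 over the animals in each row. A score of -1 therefore lies 1 SD of that clone below its own mean, and scores say nothing about which clone was more abundant. Animal 693 had values in 513 rows, the next lowest animal in 1593 and the median animal in 2453. In the scanner files, the spot grids of animals 762 and 358 were turned by 180 degrees and that of animal 689 was shifted by 1 column. In animal N42, 7 blocks of spots were read 1 row off. Once these were put right, every score column correlated best with its own array out of 57, with a median r of 0.888 and the lowest, 0.490, in animal 689. Because these 4 arrays were in doubt, the block was also formed without them, which gave 152 rows over the limit, 149 of them members.

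The members formed 1 tight block. Over the 15225 pairs of members the median r was 0.782, and it was also 0.782 over the 15051 pairs that leave out scaj0012.o.01. Pair values ran from 0.281, between scan0022.a.15 and scan0035.l.15, to 0.968, between scaj0012.k.12 and scan0016.b.13. Of the pairs of members, 83.7% exceeded 0.67, against 0.685% of the pairs of all rows, whose median r was -0.01. The first principal component carried 77.3% of the variance of the members and 12.8% of that of all rows.

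The clone that defined the block was not its centre. The mean r of scaj0012.o.01 with the other members was 0.799, which ranked 67 of 175. The highest mean r, 0.848, belonged to scac0036.d.16, and the lowest, 0.557, to scan0022.a.15. In all, 177 rows had at least 100 partners over 0.67 anywhere in the table, and 162 of them were members, which is 92.6% of the members and 91.5% of those rows. Another 30 rows outside the block correlated above 0.67 with the mean of the members.

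Average-linkage clustering found no clear division. The best split, into 2 subgroups with a mean silhouette of 0.437, set 3 members apart from the other 172. The small subgroup held scan0022.a.15, scac0029.c.12 and scac0029.j.07, with a median r of 0.635 among themselves and 0.586 with the rest. Inside the large subgroup the median r was 0.787, with scac0036.d.16 at its centre. Splits into 3 to 6 subgroups had silhouettes from 0.379 down to 0.235 and only peeled off single members or pairs.

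**Figure D1:**
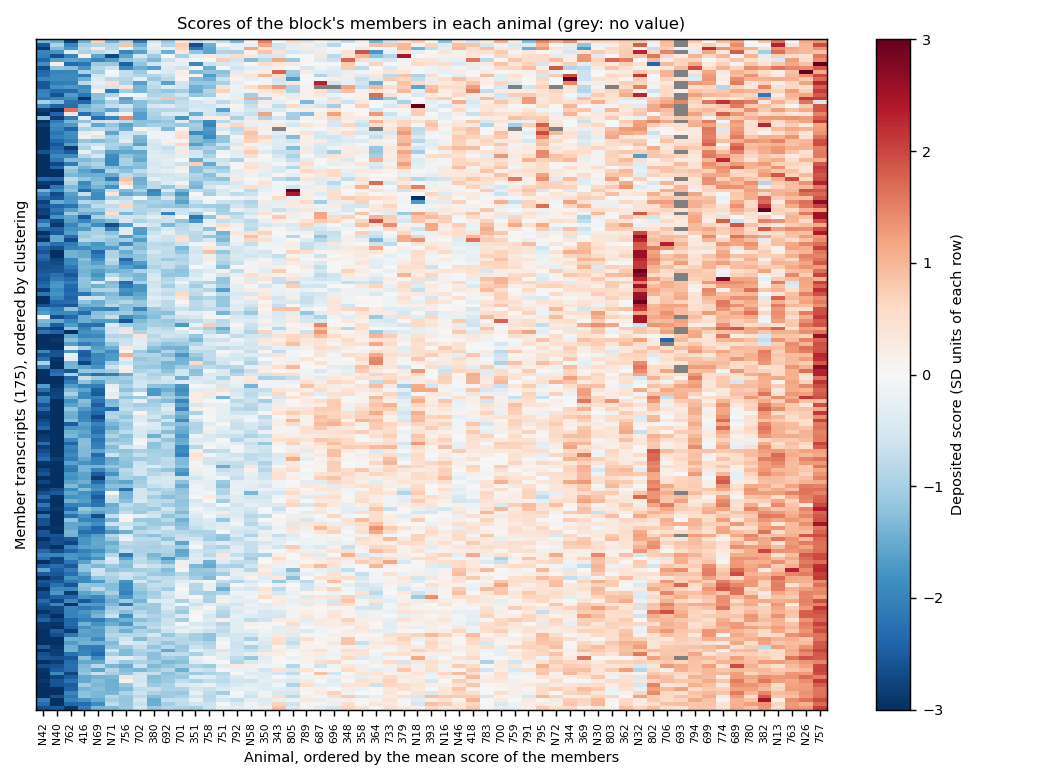
Scores of the 175 members (rows, ordered by clustering) in the 57 animals (columns, ordered by the mean score of the members), in SD units of each row, with missing values in grey. Nearly all members were low in N42 and N40 and high in 757, and 21 members scored above 2 in N32.

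scaj0012.o.01 had its lowest score, -2.83, in animal 762, a median of 0.23 and its highest score, 1.64, in animal 689. The next lowest animals were N42 at -2.66 and 756 at -2.02. The 10 members most like it had r from 0.897 to 0.949. The clone scan0030.p.09 led them with r = 0.949, and its scores ran from -2.95 in N42 through a median of 0.19 to 1.96 in 757. Next came scac0036.d.16 with r = 0.926, whose scores ran from -3.20 in N40 through 0.16 to 1.78 in 757. The clone scan0003.l.13, with r = 0.925, ran from -2.69 in N42 through 0.21 to 1.46 in N26. The low end of these profiles lay in the same few animals, whereas the high end was shared less evenly.

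The clone scai0001.b.08, with r = 0.921, had scores from -3.01 in 762 to 1.51 in 757, and was the only one of the 10 with its minimum outside N42 and N40. The other 6 were scac0036.f.21 (r = 0.916), scac0042.c.17 (0.907), scan0010.c.02 (0.906), scan0007.a.22 (0.901), scac0038.h.14 (0.898) and scan0028.b.01 (0.897). Their lowest scores lay between -3.13 and -2.53. Of the 10, 6 were highest in 757. At the limit, the last 3 members were scac0043.k.22 at 0.675, scac0026.m.01 at 0.673 and scac0029.c.12 at 0.673. The first 3 rows outside it were scac0036.h.13 at 0.665, scan0013.f.19 at 0.663 and scag0003.f.01 at 0.655. The limit lay on the edge of a thin zone, since 13 rows fell between 0.60 and 0.67 and 66 between 0.40 and 0.60, while 92 of the 174 other members exceeded 0.80.

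The level of the block per animal had a long lower tail. The mean score of the members ran from -2.63 in N42 through a median of 0.19 to 1.76 in 757, with an SD over animals of 0.87. Below -1 lay 6 animals. These were N42 at -2.63, N40 at -2.57, 762 at -1.86, 416 at -1.54, N69 at -1.53 and N71 at -1.10. At the upper end only 757 at 1.76 and N26 at 1.16 exceeded 1, and the other 49 animals lay between -1 and 1.

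In 26 of 57 animals at least 90% of the members stood on the same side of 0, which follows in part from the rule. Of the other rows, between 38.8% (in N42) and 66.5% (in 774) were below 0 in an animal. In N42 and in N40, 174 of the 175 members were below 0, in 380 all 175 were below 0, and in N26 none was. The lowest score of 153 members (87.4%) fell in N42 or N40, against 88 of the 2289 other rows (3.84%). Because scaj0012.o.01 was itself low there, at -2.66 and -1.73, this contrast follows in part from the rule that chose the members. In 100 members the highest score fell in 757, and the share among the other rows was not counted. There scaj0012.o.01 stood at 1.44, so this count too follows in part from the rule. The other rows had mean scores per animal between -0.15 and 0.24, with N42 the highest. The authors centred each array before deposit, which holds such means near 0, so they do not show whether an array was low as a whole. Without the 6 animals below -1 the rule gave 83 rows, 81 of them members, with a median r between members of 0.627.

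scaj0012.o.01 followed the block with r = 0.898 between its scores and the mean of the members, both as deposited. It departed from that mean most in N32, where it scored -0.38 against 0.68, in 756 (-2.02 against -0.99), in 762 (-2.83 against -1.86) and in 364 (-0.79 against 0.16). In the other direction it stood at -1.73 against -2.57 in N40, at 1.64 against 0.87 in 689 and at 1.43 against 0.70 in 706.

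**Figure D2:**
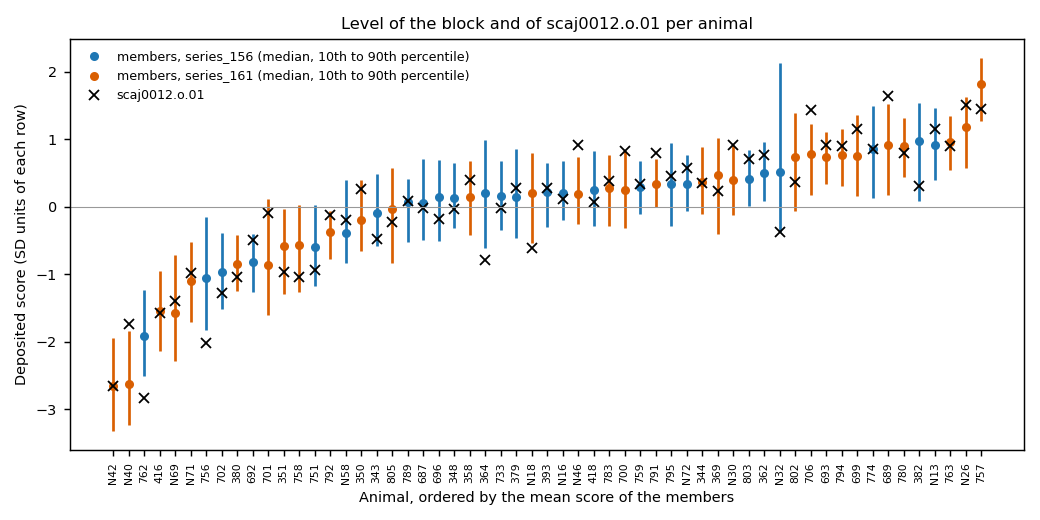
Deposited score per animal in SD units, animals ordered by the mean score of the members. Dots give the median of the members and lines their 10th to 90th percentile, coloured by array series, and crosses give scaj0012.o.01. The member mean fell to -2.63 in N42 and rose to 1.76 in 757.

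The block could be read in each array series on its own. Chosen by r over 0.67 in the 26 animals of series_156, 123 rows qualified besides scaj0012.o.01. Of these, 111 (90.2%) also exceeded 0.67 in the 31 animals of series_161, where 8.20% of all rows did, and their median r there was 0.870. Chosen in series_161, 202 rows qualified, and 111 of them (55.0%) exceeded 0.67 in series_156, where 4.99% of all rows did, with a median r of 0.699. The animals of both series came from the same family and the clone itself was picked with all of them known, so these shares describe the data and were not tested. In series_161, which holds N42, N40, 416, N69, N71 and 757, 171 of the 174 other members exceeded 0.67. In series_156, 114 of them did.

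**Figure D3:**
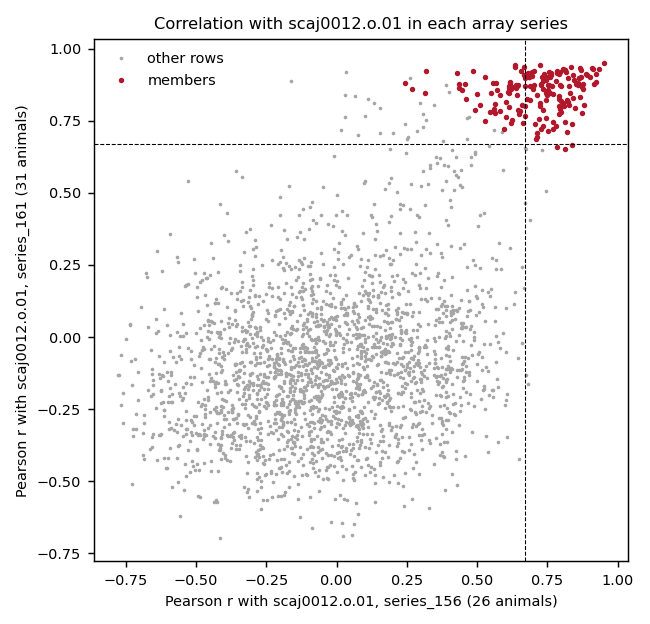
Pearson r of each row with scaj0012.o.01 in series_156 (26 animals, horizontal) and series_161 (31 animals, vertical). Dashed lines mark 0.67, red points are members and grey points other rows. The members sit at the upper right, with r from 0.245 in series_156 and from 0.651 in series_161.

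The rule removed the array series and used neither the identifier of the animal nor the name of the scanner image. Each row was therefore tested by these groupings, with limma on all rows with values and Benjamini-Hochberg adjustment over them. The mean score of the members by group is a description and was not tested. By array series, 0 of 175 members passed an adjusted p of 0.05, where 2 rows (0.0812%) passed over the table, and 6 members had an unadjusted p under 0.05, as did 7.71% of all rows. The mean score of the members was 0.04 ± 0.64 (SD, n = 26) in series_156 and -0.03 ± 1.03 (SD, n = 31) in series_161. scaj0012.o.01 was 0.26 ± 0.27 (SE) higher in series_161 (limma adjusted p = 0.830, permutation test p = 0.331, two-sided).

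The identifiers fall into 4 ranges, whose meaning the labels do not give. Here 0 members passed the limma F test, as did 0 rows (0%) of the table, and 2 members had an unadjusted p under 0.05 against 251 rows (10.2%). The mean level of the members was 0.00 ± 0.60 (SD, n = 15) for identifiers 343 to 418, 0.09 ± 0.71 (SD, n = 10) for 687 to 706, 0.17 ± 0.81 (SD, n = 19) for 733 to 805 and -0.31 ± 1.26 (SD, n = 13) for those that start with N. The N animals spanned the range from -2.63 to 1.16, and 4 of the 6 animals below -1 carried such an identifier.

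The image names in the scanner headers start in 2 ways, called scan set 1 (24 arrays) and scan set 2 (33 arrays) here. Neither the labels nor the headers say what these sets stand for. Between the sets 132 rows (5.36%) passed limma with array series as a covariate, and 0 members did. At an unadjusted p under 0.05 there were 14 members (8%), against 23.8% of all rows. The lowest adjusted p of a member was 0.0687, for scai0001.d.08, which was 0.73 ± 0.26 (SE) higher in set 2. scaj0012.o.01 was 0.56 ± 0.26 (SE) higher in set 2, with an unadjusted p of 0.0329 and an adjusted p of 0.166 in limma, and p = 0.0337 in a two-sided permutation test within array series. The difference was 0.62 within series_156 and 0.51 within series_161. With the identifier range added as a term 209 rows (8.48%) passed, and 2 members were among them. These were scai0001.d.08, 0.825 ± 0.269 (SE) higher in set 2 with a limma adjusted p of 0.0375, and scac0036.e.02, 0.782 ± 0.271 (SE) higher with an adjusted p of 0.0471, both named after their values were seen. The scan set by array series interaction was passed by 0 rows (0%) in limma, and 241 rows (9.78%) and 3 members had an unadjusted p under 0.05.

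**Figure D4:**
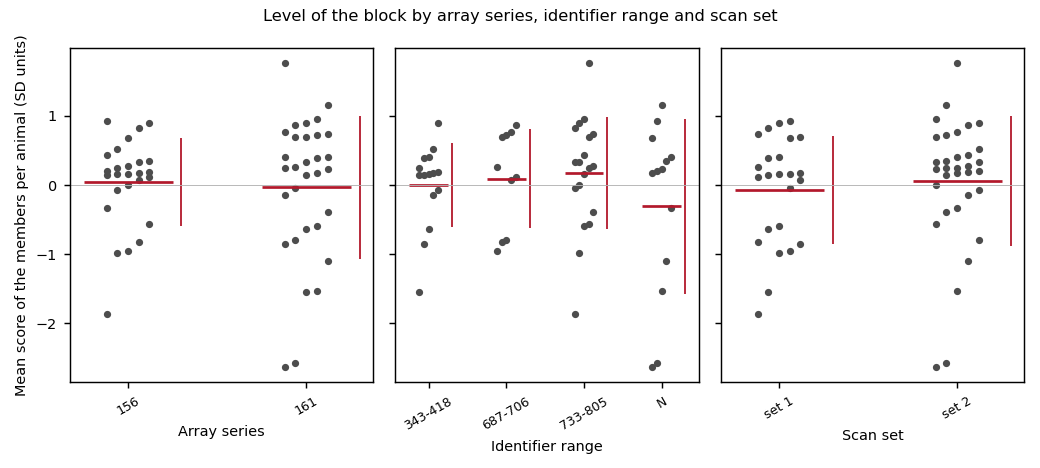
Mean score of the members per animal (SD units) by array series, identifier range and scan set. Each dot is an animal, horizontal bars are means and vertical bars are 1 SD either side. The groups overlap throughout, and the 2 lowest animals, N42 and N40, share series_161, an N identifier and scan set 2.

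Measures of each array were set beside scaj0012.o.01 after array series was removed (6 relations, permutation tests with 100000 resamples, two-sided, Benjamini-Hochberg over the 6). The spread of log2 scanner intensity over the spots of non-members went with its level, with r = 0.325 (p = 0.0141, adjusted 0.0423) and rho = 0.335 (p = 0.0108, adjusted 0.0423) over 57 animals. The r was 0.501 within series_156 and 0.231 within series_161, 0.243 within scan set 1 and 0.207 within scan set 2. Without N18 and 756, the animals farthest from the median spread, it was 0.229. The mean of the members had r = 0.108 with this spread. The number of missing rows (r = -0.0409, rho = -0.107, adjusted p = 0.761 and 0.546 by permutation) and the median intensity (r = 0.101, rho = 0.146, adjusted p = 0.546 for both by permutation) did not pass. The part of the spread in the block was not tested. With missing rows, median intensity and spread all removed, 204 rows exceeded 0.67, all 175 members among them, and 3 rows lay under -0.5 in place of 11.

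The membrane position of a clone followed from the order of the clone names. In this way 2295 rows were assigned to a spot, and for 2163 of them (94.2%) the assigned spot had the highest correlation with the row's scores among 9216 spots. A further 144 rows, whose clones were printed in another order, were placed by their profile. Of the members 167 were placed, and a member's scores correlated with its own spot with a median r of 0.940. For scaj0012.o.01 this r was 0.895, the highest of all spots. Members from plates scan0035 to scan0039 had the lowest r with their spots, from 0.269 to 0.519, so their assigned spots are in doubt. These spots are kept in the position, brightness and intensity results that follow.

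The members were scattered over the membrane. They lay in 58 of the 64 blocks, at most 8 to a block. Another member was among the 8 spots around 28 of the 167 placed members (16.8%) and among those around 450 of the 2272 other placed rows (19.8%). Of the spots around scaj0012.o.01, 3 held a row with values, none a member, with r from -0.0106 to 0.236 with it. Pairs of members more than 24 spots apart had a median r of 0.776. When the membrane was split at its middle row and column into 4 regions, the member means per region over 57 animals correlated with r from 0.936 to 0.980. The rule chose all members for following the same row over these arrays. High r between distant members and between regions therefore follows in part from the rule. The part of position in the block was not tested. In N42 the region means lay between -2.74 and -2.55, in N40 between -2.75 and -2.33 and in 757 between 1.67 and 1.85.

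Animals N32 and 774 differed most between regions, with ranges of the region means of 1.15 and 0.85 against a median of 0.31 over animals. In 774 the region means of the members ran from 0.45 in the lower left to 1.30 in the upper right, and those of the other rows from -0.29 to 0.04 in the same regions. N32 had the widest scatter of the members, with an SD of 0.89 against a median of 0.45 over animals. There 21 members scored above 2, and 17 of them lay in the lower right region of the membrane, which held 38 members. The mean in N32 was 1.45 for the members in that region and between 0.30 and 0.59 in the other regions. The other rows in that region averaged 0.45 in N32, against -0.56 to -0.02 elsewhere. The part of place on this array in the grouping of these members was not tested. Their r with scaj0012.o.01 over all animals ran from 0.679 to 0.853.

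The members' spots were bright. Ranked by mean log2 intensity over the arrays, with 1 for the brightest of 9216 spots, members ran from 81 to 1471 with a median of 540, and scaj0012.o.01 ranked 434. The median rank of the other rows was 1731. The median raw intensity of a member's spot lay between 988 and 21686 units, against 279 over all spots. No member spot reached the highest value found on any array, 34468.

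Most rows on equally bright spots were not members. Among the rows on the brightest 1000 spots, 154 were members and 540 were not, and the latter had a median r of 0.0424 with scaj0012.o.01, with 501 of them (92.8%) under 0.30. Members took up 48.6% of the placed rows at ranks 101 to 250, 32.1% at 251 to 500, 24.7% at 501 to 750, 12.8% at 751 to 1000 and 3.12% at 1001 to 1500. At the brightest 100 spots 4 of 63 rows were members, and beyond rank 1500 there were 0 of 1329. The mean of the bright non-members had r = -0.0932 with the mean of the members over the 57 animals. The rule left these non-members out because of their r with scaj0012.o.01. Their low r with it, and that of their mean with the members, therefore follow in part from the rule. These correlations are across rows or animals that share arrays and were not tested. The part of brightness in the block was not tested either.

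**Figure D5:**
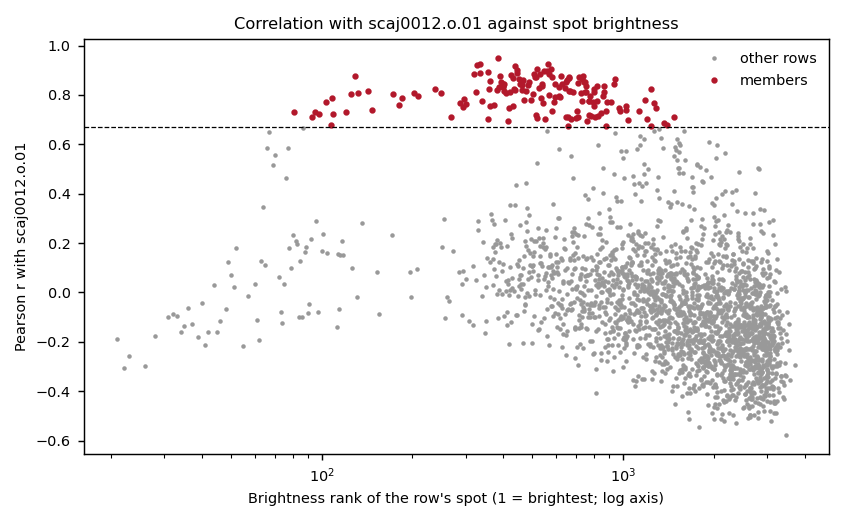
Pearson r of each placed row with scaj0012.o.01 against the brightness rank of its spot (log axis, 1 is brightest), members in red and other rows in grey, with the limit of 0.67 dashed. Members lay between ranks 81 and 1471, separated by a sparse zone from non-members of the same brightness.

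On the measured scale the block varied moderately. After cyclic loess of the log2 intensities, the SD over animals of a member's spot had a median of 0.277 (range 0.162 to 0.729), against 0.331 over the other placed rows. This order depended on the normalization, with 0.338 against 0.331 where arrays were centred on the median of the placed spots. The mean of the members lay at -0.73 in N40, the lowest animal, and at 0.47 in 757, a 2.30-fold span. For scaj0012.o.01 the raw intensity ran from 1753 through a median of 8066 to 16182, and its loess log2 level from -0.64 in N42 to 0.49 in 689, relative to its own mean. The widest span among the members most like it was that of scan0030.p.09, from -1.37 in N42 to 0.52 in 757. The log2 levels depended on the normalization, and the lowest animal was 762 after quantile normalization (-0.91) and 756 with centring on the median of all spots (-1.13). Centring on the median of the placed spots matched the scores best (median r 0.918), with N42 lowest at -0.98. Rebuilt from those intensities, the rule gave 184 rows, with 160 of the 167 placed members among them, and after cyclic loess it gave 119 rows, with 111 members.

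Members had values on more arrays than other rows. A value on every array was held by 142 members (81.1%) and by 355 of the other rows (15.5%). In animal 693, where most of the table was empty, 144 members (82.3%) had a value, against 16.1% of the other rows.

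The clone names share a few prefixes of 4 letters, whose meaning the sources used here do not give. The prefix scac held 71 members of 941 rows (7.55%) and scan 48 of 1092 (4.40%). The smaller sets were denser in members, with scaj at 19 of 84 (22.6%), scai at 8 of 47 (17%), scab at 12 of 76 (15.8%) and scaa at 7 of 55 (12.7%), while scag had 10 of 155 (6.45%). The prefixes scap, scau and scbg had 0 members among 14 rows. Members came from 76 of 192 plates, at most 9 from 1 plate (scac0025), and 35 plates gave 1 member each. They occupied all 16 well rows and all 24 well columns. Clones are not replicates, so these shares were not tested.

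Few rows opposed the block in the scores, and 11 rows had r under -0.5 with scaj0012.o.01. The lowest were scac0028.m.17 at -0.577, scan0030.g.14 at -0.544 and scan0008.g.19 at -0.527. They were followed by scac0037.h.05 at -0.523, scan0024.a.03 at -0.520, scac0028.j.09 at -0.513, scan0016.f.08 and scac0026.o.13 at -0.511, scac0033.l.12 at -0.508, scac0030.f.02 at -0.507 and scai0001.f.05 at -0.505. Their correlation with the mean of the members was weaker, from -0.445 to -0.321, and among themselves the median r was 0.423.

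The opposing rows sat on dim spots, with ranks from 1651 to 3459, and had values on 46 to 56 arrays. In 6 of the 11 the highest score fell in animal 756. The clone scac0028.m.17, for one, ran from -1.57 in 699 through a median of -0.01 to 3.65 in 756. The set of opposing rows depended on the setting. Without animal 756 there were 4 rows under -0.5, 3 of them from the original 11, and with scan set removed beside array series there were 3, with 2 of the 11. With missing rows, median intensity and spread removed there were 3, with 1 of the 11. In scanner intensities centred on the median of the placed spots there were 0, and after cyclic loess 3, with 0 of the 11. Within series_156 alone 155 rows lay under -0.5, with 9 of the 11, and within series_161 alone 54, with 6.

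Another clone that the study lists by the same kind of identifier, scaj0013.e.07, was not part of the block. Its r with scaj0012.o.01 was 0.159 over all animals, 0.466 within series_156 and -0.0734 within series_161. Its scores ran from -3.38 in 756 through 0.04 to 2.36 in N40, an animal in which the members were at their second lowest. Among the members, scaj0012.o.01 was the only one listed by identifier. Only 2 rows with values could be matched to the study's list in this way. How many other members are among the study's transcripts with an eQTL is therefore not known.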

How the data were processed

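Labelled cDNA of each muscle was hybridised to 1 nylon array. The authors quantified the phosphor images with a fixed circle and deposited the spot intensity values, 9216 per array, with no background column. Per the methods, the authors removed spots with little DNA or weak signal and took log10. They then centred on the median within each hybridization experiment, adjusted by loess and centred per spot. These values were deposited as a score table in which each row has mean 0 and SD 1. Normalization is not reversible from the scores, so folds come from scanner intensity alone.

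From the scores, residuals on array series were correlated (pandas 2.3.3, numpy 2.4.6, scipy 1.17.1). Group tests used limma 3.58.1 in R 4.3.3 on all 2464 rows, with Benjamini-Hochberg adjustment. Simulated rows of independent noise were shifted between the scan set groups. Recovered were 70 of 100 rows shifted by 1 SD and 99 of 100 shifted by 1.5 SD, with 5 false calls among 2464 rows. The members are correlated with each other, so these rates do not apply to the block, and smaller shifts were not simulated. Each animal has 1 array, so the spread in the tests joins that of animals with that of RNA preparation and array. These parts cannot be told apart. All animals share a sire and come from a few dams, which the tests did not take into account. The number of arrays limits the precision.

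Image grids of 3 arrays were put right before use, and blocks read a row off in N42, 382 and 706 were moved back, which left 84, 12 and 12 spots empty. Scanner log2 intensities were normalised by cyclic loess, with quantile, median and other centring as alternatives. The members and lists were chosen with earlier results of these data known. Named were scaj0012.o.01, the 10 members most like it, the 3 rows on each side of the limit, the centre of each subgroup, the 10 lowest rows and scaj0013.e.07. The 11th opposing row, the pairs with the highest and lowest r, the rest of the small subgroup and members singled out by scan set were named after their values were seen. Lists of fibre type, cell type and pathway genes could not be applied because the tables used here pair no clone with a gene. The N32 members, the membrane regions and the brightness ranges were chosen after their values were seen.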

Additional observations from a re-analysis of the deposited data

How the results depend on the processing

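Of 87 repeats under another setting, 62 kept their direction and side of the threshold, or stayed within the allowed range. The number of rows over the limit lay between 119 and 204 under every setting but 1. Without the 6 animals with a member mean under -1, chosen after seeing the data, it was 83 and the median r between members 0.627. Of the 175 members, scaj0012.o.01 included, 115 stayed over 0.67 in series_156 alone and 136 by Spearman's rho. After cyclic loess of the scanner intensities 111 of the 167 placed members did. The 11 opposing rows numbered 23 by Spearman's rho, 27 without animals 762, 358, 689 and N42 and 95 with a limit of -0.4. Under settings chosen after seeing the data they numbered 3 with scan set removed, 22 with identifier range removed, 3 with missing rows, intensity and spread removed, 20 without the 2 animals most extreme for scaj0012.o.01, 40 without N42 and N40, 31 without the 6 low animals and 4 without animal 756. They numbered 155 in series_156 alone, 54 in series_161 alone, 0 and 3 in scanner intensities centred on placed spots and after loess, and 0 among complete rows, where none of the 11 could be, since each lacks a value on some array. Rows that differed by scan set numbered 132, and 13 without animals 762, 358, 689 and N42, 209 with the other batch terms as a block and 43 among complete rows, while 2 members passed with the block and 0 otherwise. Rows that differed by array series numbered 6 with the block and 0 among complete rows, against 2. The median SD of members' log2 intensity rose to 0.402 where quantile normalization replaced loess and to 0.453 where arrays were centred on their median alone. The causes were not tested. Background correction by normexp was not run, because the scanner files used here hold no background column. No paired analysis was possible because no animal has a second array and the replicate numbers are names alone.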
